A study of Mus musculus with 4 samples.

Results

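The miRNAs described here carry a registry number from 3000 to 4999 in their name, with number 3072 left out. They were chosen by the name alone, and they make up 77 of the 1038 known mouse miRNAs in the deposited table of group means. The lowest number among them was 3057 and the highest 3572, and 0 members had a number from 4000 to 4999. Of the 77 names, 33 ended in 5p, 34 ended in 3p and 10 gave no arm at their end. The study sequenced small RNA of the medial prefrontal cortex, taken from both sides, in male juvenile mice 3 weeks old when they entered it. Their strain is C57BL/6 in the sample labels and C57BL/6J in the study's methods. Control mice lived without stress, and CUMS mice went through chronic unpredictable mild stress, a schedule of varied mild stressors, for 3 weeks. Only stressed mice that changed in every behaviour test used for a depression-like state were taken, so mice that withstood the stress are not represented. There were 2 libraries in each group, made from bulk tissue, and in such tissue fewer cells of a type and less RNA per cell cannot be told apart.

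A miRNA is cut from a hairpin precursor, whose 5p and 3p arms can each give a mature RNA, and its seed, bases 2 to 8, does most of the pairing with target mRNAs. Registry numbers follow the order in which miRNAs were entered, so high numbers came largely from deep sequencing and include many RNAs with few reads. Some hairpins of this kind are mirtrons, whose ends are made by splicing of a short intron in place of the nuclear enzyme Drosha, and others overlap small nucleolar RNAs (snoRNAs), which guide the modification of other RNAs.

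Mature sequences were found for 70 of the 77 members in the RefSeq miRNA table on build GRCm38.p6, and in each line below the capitals mark the seed. The members with no entry were miR-3078-5p, miR-3078-3p, miR-3470a, miR-3074-1-3p, miR-3079-5p, miR-3106-5p and miR-3095-5p. The first set holds the abundant members with a sequence, which carry most reads of the 77.
miR-3099-3p: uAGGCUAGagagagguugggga
miR-3475-3p: uCUGGAGGcacaugguuugaa
miR-3086-5p: uAGAUUGUaggcccauugga
miR-3068-3p: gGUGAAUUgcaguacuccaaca
miR-3057-5p: aUUGGAGCugagauucugcgggau
miR-3535: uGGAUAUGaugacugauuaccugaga
miR-3061-3p: cUACCUUUgauaguccacugcc
miR-3059-5p: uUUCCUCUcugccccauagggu
miR-3082-3p: cACAUGGCacucaacucugcag

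The second set holds the members with the largest group ratios or the largest differences between libraries of a group, among members with a mean of at least 10. It includes miR-3103-5p and miR-3083-3p, both on the study's list of changed miRNAs.
miR-3103-5p: gGAGGGAGgaucugcuguuag
miR-3103-3p: uAACCUCUgauccuucccacag
miR-3083-3p: uCCGAAACauucccagccuuua
miR-3081-3p: uUGCGCUCcgaucucugagcugg
miR-3087-3p: uAACUCACugucauguccuca
miR-3552: aGGCUGCAggcccacuucccu
miR-3547-3p: uGAGCACCaccccucucucag

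The third set holds members that share their seed with each other. miR-3085-3p and miR-3064-5p form one seed group, and miR-3473b and miR-3473e form another.
miR-3085-3p: uCUGGCUGcuauggcccccuc
miR-3064-5p: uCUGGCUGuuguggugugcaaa
miR-3473b: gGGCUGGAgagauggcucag
miR-3473e: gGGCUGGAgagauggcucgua

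In the fourth set are the minor arms of hairpins described below, whose share of the hairpin's reads was compared between the libraries.
miR-3061-5p: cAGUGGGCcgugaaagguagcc
miR-3068-5p: uUGGAGUUcaugcaaguucuaacc
miR-3082-5p: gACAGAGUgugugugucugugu

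The sequences had 20 to 26 bases, with a median of 22. Their median GC content was 53.5%, between the 47.8% of the 557 matched miRNAs numbered under 3000 and the 56.8% of the 236 matched miRNAs numbered 5000 and above. Of the 70 members, 34 (48.6%) started with U, against 36.3% of the lower and 46.2% of the higher numbers. A seed shared with another miRNA of the table was found for 7 of the 70 members (10.0%), against 28.9% of miRNAs numbered under 3000 and 11.9% of those numbered 5000 and above.

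Reads of single libraries were solved from the deposited means, and the letters a and b stand for libraries of a group that carry no replicate number. Depth, the total of known miRNA reads, was 10533646 and 10783592 for the controls and 10427625 and 9589323 under CUMS. A floor of 3 reads was set for detection limits, and it stands for 2.78e-05% to 3.13e-05% of a library. Floors and intervals given here cover counting error only, since the reads carry no molecular identifiers. RNA was isolated mouse by mouse, but the sources do not state whether a library holds the RNA of a single mouse. The p-values therefore take these libraries as units and set a group difference against the differences between libraries.

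The tissue label was checked against marker miRNAs. The 4 neuronal markers, of which miR-9-5p was the most abundant, together took 8.24% and 6.70% of the control reads and 8.27% and 9.43% of the CUMS reads. Among them miR-124-3p had 26501 and 23152 reads in the controls and 31217 and 33239 under CUMS, without overlap. In each of the other neuronal markers the groups overlapped. The liver marker miR-122-5p had 0 reads in either control library and 1 read in each CUMS library. Of the 3 muscle markers 2 were in the table, with sums of 231 and 348 reads in the controls and 206 and 186 under CUMS. Most of these were miR-133a-3p, with 229 and 348 reads in the controls and 206 and 178 under CUMS, while miR-1a-3p had 0 to 8 reads a library and miR-206-3p was not in the table. The 2 oligodendrocyte markers, miR-338-3p the more abundant, summed to 7865 and 8176 reads in the controls and 6384 and 6752 under CUMS, without overlap. CUMS library b was apart in the choroid plexus marker miR-204-5p, with 11901 reads against 16857 to 22004. It was also the highest in the 2 red cell markers, mostly miR-451a, with a sum of 552 reads against 378 to 429. The 3 immune cell markers, mostly miR-150-5p, summed to 2777 and 3610 reads in the controls and 4285 and 2215 under CUMS, with overlap. Control library b stood apart from the others in the 8 markers of epithelium and sensory organs, all of which were in the table. Their sum was 0.0393% of the reads in control library a, 9.32% in control library b, 0.0503% in CUMS library a and 0.0721% in CUMS library b. Most of this sum was miR-182-5p, with 3931, 962144, 5009 and 6566 reads in the same order. The part of these differences in the results for the members was not tested, and for several members the ratio without control library b is given beside that with it. Control library a stood apart in another way, as the lowest library for more tested members than any other, and its counts are given with the ratios.

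The members were a minor share of the libraries. Control library a held 7372 of their reads, control library b 8196, CUMS library a 8119 and CUMS library b 5887. This was 0.0700% (95% Wilson interval 0.0684 to 0.0716) and 0.0760% (0.0744 to 0.0777) of the miRNA reads in the controls and 0.0779% (0.0762 to 0.0796) and 0.0614% (0.0598 to 0.0630) under CUMS. CUMS library b was the lowest and CUMS library a the highest on this scale, so the groups overlapped. After division by the size factors of the deposited means, the summed normalized count was 7211 and 8193 in the controls and 7645 and 6237 under CUMS. Its log2 ratio, CUMS over control, was -0.15, and a two-sided exact permutation test over the 4 libraries gave p = 0.667, where 0.333 is the smallest p that 2 against 2 allows. Without the most abundant member, miR-3099-3p, the sums were 4612 and 5109 in the controls and 4983 and 4770 under CUMS, and the log2 ratio was 0.00.

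Detection stood between that of the lower and the higher numbers. At least 1 read in every library was found for 44 of the 77 members (57.1%), against 75.0% of 671 miRNAs numbered under 3000 and 31.2% of 269 numbered 5000 and above. Single libraries held reads of 56 and 59 members in control and of 57 and 60 members under CUMS. With at least 10 reads in every library, 25 members (32.5%) remained, against 59.0% of the lower and 11.9% of the higher numbers. There were 16 members with reads in a single library, none with more than 5 reads, and 21 members had 4 or fewer reads over all libraries.

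The members read in 1 group alone were 11 in the controls and 12 under CUMS, against 119 and 101 of all 1038 miRNAs, and the reads of each summed to between 1 and 6. At this depth such members cannot show a difference, and no single ratio is given for them. The arms of miR-3098, a hairpin in an exon of the mitochondrial ribosomal protein gene Mrpl51, are an example, named after their values were seen. miR-3098-5p had 3 and 1 reads in the controls and 0 and 0 under CUMS, and miR-3098-3p had 0 and 0 reads in the controls and 3 and 3 under CUMS. Each of these values is at or under the floor. Of the members read in 1 group alone, 1 was tested below, miR-3060-3p, and the counts of ratios include it. The count with no filter includes all of them.

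The median over the members of the mean normalized count was 3.99, against 41.8 for the lower and 1.47 for the higher numbers. A mean under 1 was found for 18 members (23.4%), 1 to 10 for 29 (37.7%), 10 to 100 for 20 (26.0%), 100 to 1000 for 8 (10.4%) and 1000 or above for 2 (2.60%). Among the lower numbers 160 miRNAs (23.8%) reached 1000, and among the higher numbers 0 did.

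**Figure D1:**
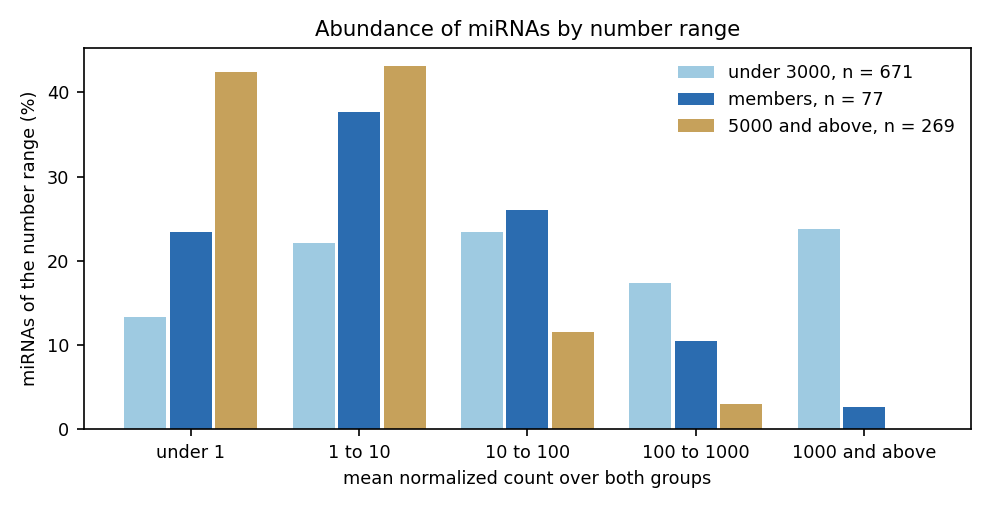
Share of miRNAs (%) in 5 classes of mean normalized count, for 77 members, 671 miRNAs numbered under 3000 and 269 numbered 5000 and above. Members lie between the other ranges in every class except 10 to 100, where their 26.0% is the highest bar.

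The reads of the members were concentrated in a few. The 7 members with the most reads held 86.0% and 84.1% of the members' control reads and 84.3% and 79.6% of their CUMS reads. miR-3099-3p alone held 36.0% and 37.6% in the controls and 34.8% and 23.5% under CUMS. It lies at chr7:6803638-6803659 on the plus strand, in an intron of Usp29, a deubiquitinase gene of the imprinted Peg3 domain. Its normalized counts were 2599 and 3084 in the controls and 2662 and 1467 under CUMS. CUMS library b was low and CUMS library a lay between the control libraries, so the low CUMS mean came from 1 library. The log2 ratio was -0.46, and it was -0.09 without CUMS library b and -0.95 without CUMS library a.

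Of the other abundant members, miR-3061-3p is described below with its other arm. miR-3475-3p, between genes at chrX:140310992-140311012, had normalized counts of 942 and 1179 in the controls and 1170 and 977 under CUMS. For miR-3086-5p, in an intron of Hspa12a, a member of the heat shock protein 70 superfamily, the counts were 652 and 591 in the controls and 636 and 553 under CUMS. miR-3057-5p, in an exon or an intron of Apba3 depending on the transcript, had 566 and 549 in the controls and 523 and 585 under CUMS. The groups overlapped in these 3 members, and the log2 ratios were 0.02, -0.06 and -0.01. miR-3078-5p, for which no sequence is shown, had 362 and 324 in the controls and 362 and 337 under CUMS, a ratio of 0.03. miR-3059-5p, in an intron of the glycosyltransferase gene Mgat4c, had 126 and 163 in the controls and 161 and 178 under CUMS. CUMS library a lay just under control library b, and the ratio was 0.23.

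**Figure D2:**
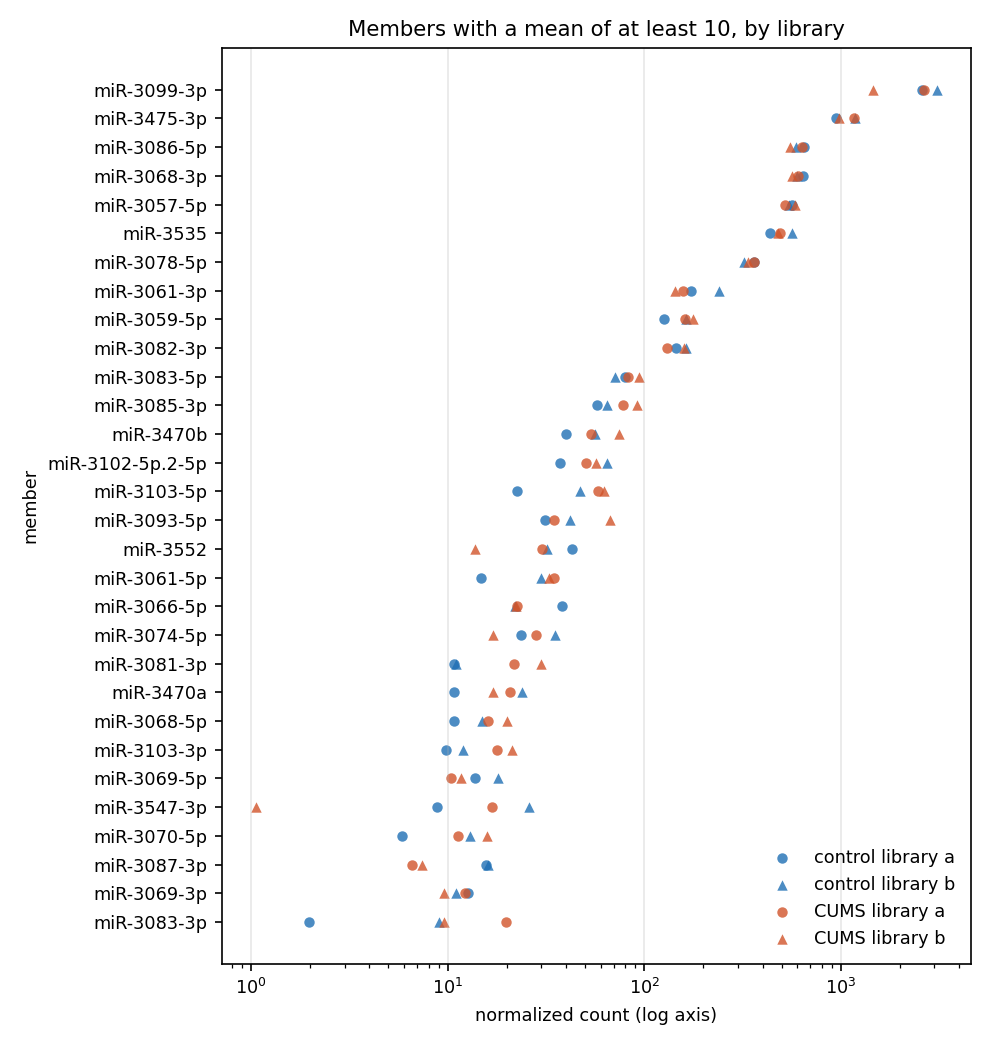
Normalized count (log axis) of the 30 members with a mean of at least 10 in each of the 4 libraries, control in blue and CUMS in orange, with circles for library a and triangles for library b. The widest row is that of miR-3547-3p, from 1.06 to 26.0.

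Several members share their place with another small RNA gene. The hairpins of 7 members (10.0% of 70) overlapped a snoRNA or small Cajal body RNA (scaRNA) gene of GENCODE M21, counted on either strand. The share was 1.80% of the lower and 1.69% of the higher numbers. For the members, every such gene was on the strand of the miRNA. miR-3068-3p, in an intron of the demethylase gene Alkbh1 at chr12:87437685-87437706 on the minus strand, ends 3 bases before the end of a gene of 136 bases that GENCODE classes as a snoRNA under the name Mir3068. It had normalized counts of 643 and 597 in the controls and 605 and 566 under CUMS, with overlapping groups and a log2 ratio of -0.08. miR-3069-3p ends 3 bases before the end of Scarna13, and miR-3084-3p ends 4 bases before the end of Snora19 and of Gm23658, the snoRNA genes at its 2 loci. The 3p arms of these 3 hairpins therefore lie at nearly the same distance from the end of the host RNA, and their 5p arms at 40 to 42 bases from it.

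miR-3535 lies at the other end of its host RNA. Its 26 bases, at chr1:86352062-86352087 on the minus strand, start with the first base of Gm24148, a snoRNA gene of 80 bases in an intron of Ncl, the gene of nucleolin. The counts of miR-3535 were 439 and 568 in the controls and 490 and 480 under CUMS. Both CUMS libraries lay between the control libraries. The ratio was -0.05, or 0.14 without control library b and -0.23 without control library a. The summed normalized count of the 7 members on such genes was 1121 and 1220 in the controls and 1144 and 1096 under CUMS. The authors removed reads of other noncoding RNAs, snoRNAs among them, before miRNAs were counted, and the effect of that step on these members was not tested.

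Most members lay in genes that encode proteins. Of the 70 with a locus, 50 (71.4%) were on the sense strand of such a gene, against 42.7% of the lower and 92.4% of the higher numbers. They were in an intron for 34 members, in an exon for 5, and in either one depending on the transcript, or across a boundary, for 11. A further 6 were antisense to a protein-coding gene, 3 were in a long noncoding RNA (lncRNA) gene, 10 were between genes, and miR-3074-5p has loci of different kinds. Long noncoding hosts were found for 4.29% of the members on the sense strand, against 22.1% of the lower and 1.27% of the higher numbers.

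**Figure D3:**
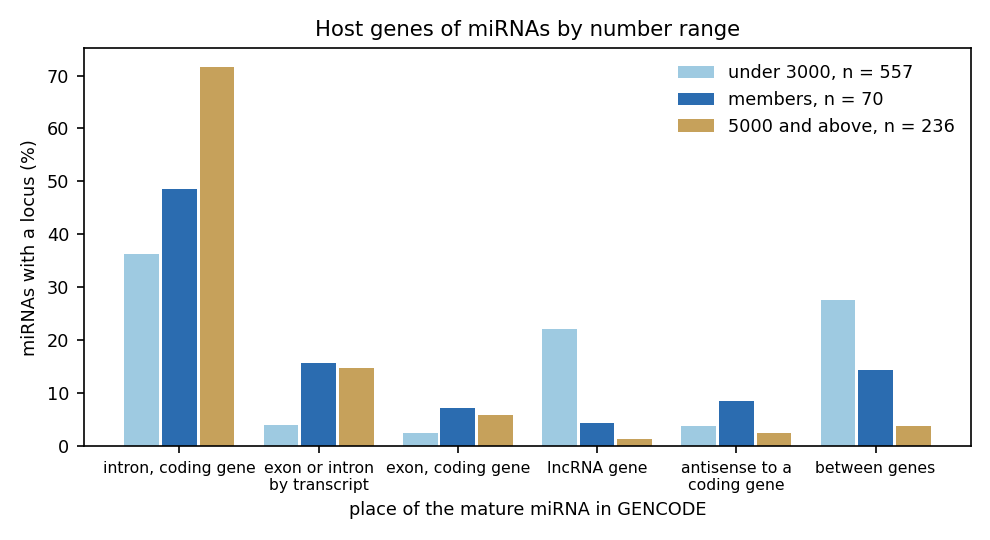
Share of miRNAs with a locus (%) by place in GENCODE M21, for 70 members, 557 miRNAs numbered under 3000 and 236 numbered 5000 and above; rare classes are not drawn. Introns of protein-coding genes hold 48.6% of the members, between 36.3% and 71.6% for the other ranges.

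The sum over the 34 members in introns of protein-coding genes followed miR-3099-3p, with normalized counts of 4661 and 5250 in the controls and 4805 and 3484 under CUMS. CUMS library b was the lowest and CUMS library a lay between the control libraries.

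The 3′ end of 10 members (14.3%) lay within 1 base of an annotated 3′ splice site of the host, where a mirtron would end, against 1.08% of the lower and 22.0% of the higher numbers. These were miR-3064-3p, miR-3076-3p, miR-3077-3p, miR-3082-3p, miR-3087-3p, miR-3097-3p, miR-3103-3p, miR-3104-3p, miR-3547-3p and miR-3572-3p. Not all of the introns were short. They had 1265 bases for miR-3064-3p, 962 for miR-3076-3p, 709 for miR-3097-3p and 1826 for miR-3104-3p. For the others they had 80 to 178 bases. A single member, miR-3547-5p, started within 1 base of a 5′ splice site, so the miR-3547 hairpin spans its whole intron of 88 bases in Baiap3. The most abundant of the 10 was miR-3082-3p in Stub1, the gene of the ubiquitin ligase CHIP, with 146 and 164 in the controls and 131 and 160 under CUMS. Its groups overlapped. Over the 10 members the sum was 196 and 231 in the controls and 185 and 201 under CUMS, again with overlap.

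A few hairpins lie opposite another miRNA gene. miR-3074-5p, opposite the miR-24 genes at both of its loci, had 24 and 35 reads in the controls and 30 and 16 under CUMS, while miR-24-3p had 1049 and 671 in the controls and 580 and 1039 under CUMS. miR-3065-5p, opposite the oligodendrocyte miRNA gene Mir338, had 2 reads in CUMS library a and 0 in the other libraries, where miR-338-3p had 3960 to 4880 reads in each of the 4. The arms of miR-3544, opposite Mir337, had 1 read each, both in control library b.

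The group comparison was fitted with limma on log2(normalized count + 1) over the 719 miRNAs that reached 5 reads in 1 or more libraries, of which 45 were members. The other 32 members had at most 10 reads over all libraries. At an adjusted p under 0.05, limma called 0 of the 45 members and 0% of the 719 miRNAs. At an unadjusted p under 0.05 it gave 1 of the 45, miR-3081-3p, against 3.89% of the 719. The edgeR quasi-likelihood test called 0 members and 0 of the 719, with 1 member and 30 of the 719 at an unadjusted p under 0.05. By DESeq2 (Wald test) 0 members and 0 of the 719 were called, with 0 members and 24 of the 719 at an unadjusted p under 0.05. The lowest adjusted p of a member was 0.835 by limma.

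Ratios of the deposited group means, with 1 added to each, spread widely at low levels and little at high ones. The median log2 ratio of the 45 members was 0.13, with quartiles of -0.11 and 0.56, and the median of the 719 was 0.02. Of the 45, 27 were higher and 18 lower under CUMS, against 376 higher and 343 lower of the 719. miR-3060-3p had reads under CUMS alone, and the median without it was 0.12. A fold above 1.5 was passed by 14 of the 45 members (31.1%), 10 higher and 4 lower, against 28.5% of the 719, 96 higher and 109 lower. The median size of the ratio was 0.46 over the members and 0.28 over the 719.

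The spread was narrower at higher levels. The 10 members with a mean of at least 100 had log2 ratios from -0.46 to 0.23, and 0 of them passed a fold of 1.5, near the 5.59% of all 304 miRNAs at that level. Of the 20 with a mean from 10 to 100, 7 (35.0%) did, against 27.4% of 157 lower and 19.4% of 31 higher numbers at that level. The difference between the 2 libraries of a group was larger than the group ratio in at least 1 group for 37 of the 45 members (82.2%), against 78.2% of the 719.

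**Figure D4:**
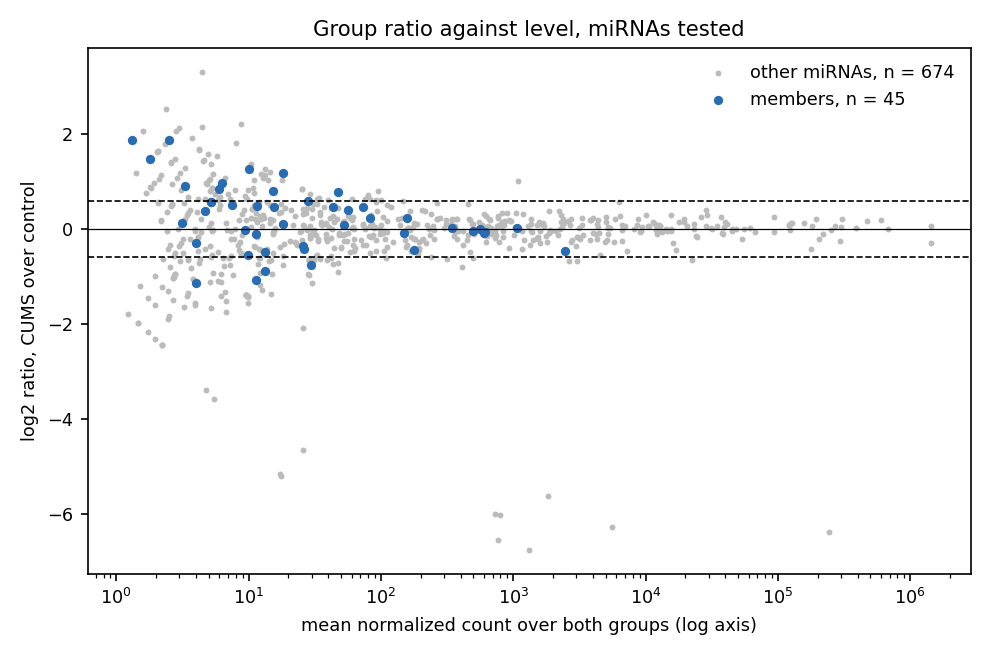
Log2 ratio of CUMS over control against mean normalized count (log axis) for the 45 members tested, in blue, and 674 other miRNAs, in grey. Dashed lines mark a fold of 1.5; the members with a mean of at least 100 lie between them.

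The CUMS values were both outside the control range for 14 of the 45 members (31.1%), 10 above and 4 below, against 33.8% of the 719. In this share the members were near the background, which had 120 above and 123 below. Control library a was the lowest of the 4 libraries for 23 of the 45 members (51.1%) and for 22.7% of the 719, a difference seen after the fact that was not tested. Control library b was the lowest for 7 members, CUMS library a for 4 and CUMS library b for 8. The median log2 ratio of the members was 0.06 without control library a and 0.51 without control library b, where control library a alone stood for the group, while the median of all 719 stayed at 0.02 and 0.03. The number past a fold of 1.5 was 19 of the 45 without control library a and 25 without control library b, against 31.4% of the 719 in each case.

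Among members with a mean of at least 10, 6 of 30 passed a fold of 1.5 without overlap between the groups. All 6 had a mean from 10 to 100, a class in which they were 6 of 20 members against 42 of 214 miRNAs of the table. They were 4 higher and 2 lower under CUMS, and all had an adjusted p of 0.835 by limma. miR-3081-3p, in an intron of Boc, a co-receptor of hedgehog signalling, had 11 and 11 reads in the controls and 23 and 28 under CUMS. Normalized, these were 10.8 and 11.0 in the controls and 21.7 and 29.7 under CUMS. Every CUMS library was above every control library, with a fitted log2 difference of 1.15 (SE 0.43). With each library left out in turn its log2 ratio lay between 0.93 and 1.37.

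Both arms of miR-3103 were among the 6. The hairpin lies in an intron of 89 bases in BC017158, where miR-3103-3p, at chr7:128288370-128288391 on the minus strand, ends at the splice site. miR-3103-5p had normalized counts of 22.5 and 47.0 in the controls and 58.4 and 62.5 under CUMS. miR-3103-3p had 9.78 and 12.0 in the controls and 17.9 and 21.2 under CUMS. The CUMS libraries were the higher ones for both arms, but the control libraries of miR-3103-5p differed by 1.03 on the log2 scale, more than the group ratio of 0.78. The fitted log2 difference was 0.87 (SE 0.42) for the 5p and 0.79 (SE 0.45) for the 3p arm. Without control library b the log2 ratio of miR-3103-5p was 1.39, and without control library a it was 0.36, under a fold of 1.5. The share of the 5p arm in the hairpin's reads was 69.7% and 79.7% in the controls and 76.5% and 74.7% under CUMS, with overlapping groups. The seed of miR-3103-5p is also that of miR-7047-5p, which had 5 reads in all.

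miR-3083-3p, the minor arm of its hairpin, had 2 and 9 reads in the controls and 21 and 9 under CUMS. CUMS library a was high, control library a low, and CUMS library b only just above control library b, with the same 9 reads and a smaller size factor. The log2 ratio was 1.27, the fitted difference 1.44 (SE 0.79), and the range with each library left out 0.65 to 2.40, highest without control library b. The difference between its control libraries, 1.76, was the largest among members with a mean of at least 10. The major arm, miR-3083-5p, had normalized counts of 80.2 and 71.0 in the controls and 82.9 and 94.3 under CUMS. Its groups did not overlap either, and its log2 ratio was 0.23.

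The 2 lower members of the 6 lie in introns of protein-coding genes. miR-3087-3p, which ends 1 base before a splice site of Abca2, a lipid transporter gene, had 16 and 16 reads in the controls and 7 and 7 under CUMS. The libraries of each group were alike and the groups did not overlap, with a fitted log2 difference of -1.07 (SE 0.49). Its other arm, miR-3087-5p, had 3 and 16 reads in the controls and 14 and 5 under CUMS, and did not follow it. miR-3552, in an intron of Htr2c, the gene of the serotonin receptor 2C, had normalized counts of 43.0 and 32.0 in the controls and 30.1 and 13.8 under CUMS. CUMS library a was just under control library b, with the same 32 reads, and CUMS library b far under it. With library totals in place of size factors CUMS library a lies above control library b, so the lack of overlap depends on the scaling, and the fitted difference was -0.83 (SE 0.47). Its log2 ratio of -0.75 fell under a fold of 1.5 without CUMS library b (-0.31) and without control library a (-0.52), and was -1.38 without CUMS library a.

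miR-3547-3p was the member with the largest difference between the CUMS libraries, -3.12 on the log2 scale from library a to library b. It had 9 and 26 reads in the controls and 18 and 1 under CUMS. The groups overlapped, and the log2 ratio of -0.88 was -0.04 without CUMS library b, 0.03 without control library b and -3.16 without CUMS library a.

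Seed groups were small. miR-3085-3p, between genes at chr19:42280095-42280115, had normalized counts of 57.7 and 65.0 in the controls and 78.1 and 92.2 under CUMS. The groups did not overlap, the controls being lower, and the log2 ratio of 0.47 was under a fold of 1.5. miR-3064-5p, which has the same seed and lies in Ddx5, an RNA helicase gene, had 2.93 and 21.0 in the controls and 10.4 and 5.30 under CUMS. It went the other way, with a ratio of -0.55 and overlapping groups. Its ratio was 1.17 without control library b and -1.32 without control library a. miR-3473b and miR-3473e had the same reads, 2 and 6 in the controls and 9 and 4 under CUMS. Their groups overlapped, and their ratio of 0.56 was 1.32 without control library b and 0.07 without control library a. Their first 18 bases are identical, so reads of these 2 could be counted for both and their values are uncertain. miR-3077-3p, in Sap18, shares its seed with miR-7661-3p and had 3 and 6 reads in the controls and 4 and 3 under CUMS. Its groups overlapped, and its ratio of -0.29 was 0.18 without control library b and -0.65 without control library a.

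Both arms were in the table for 20 member hairpins, and the share of an arm within its hairpin does not depend on the scaling between libraries. In the 6 with the most reads, 1 arm held most of them. The minor arm of miR-3061, a hairpin in an exon of Ppp2ca, which encodes the catalytic subunit of protein phosphatase 2A, is its 5p arm. It had 15 and 30 reads in the controls and 37 and 31 under CUMS, beside 177 and 239 reads of the 3p arm in the controls and 168 and 135 under CUMS. The CUMS libraries were above the control libraries in the 5p arm and, after normalization, below them in the 3p arm. The 5p share was 7.81% (95% Wilson interval 4.79 to 12.5) and 11.2% (7.92 to 15.5) in the controls and 18.0% (13.4 to 23.9) and 18.7% (13.5 to 25.3) under CUMS. The groups did not overlap, although the interval of control library b reached into those of the CUMS libraries. The log2 ratio was 0.58 for the 5p arm and -0.45 for the 3p arm, both under a fold of 1.5. Under the other pseudocounts, scalings and tests the 5p ratio was 0.52 to 0.66, on either side of that fold. The 5p ratio was 1.15 without control library b, past that fold, and 0.17 without control library a. The 3p ratio was -0.20 without control library b and -0.66 without control library a, past that fold.

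Minor arms of other hairpins gave smaller shares. For miR-3068 the 5p arm took 1.65% and 2.45% in the controls and 2.58% and 3.44% under CUMS. For miR-3082 the 5p arm took 0.667% and 0% in the controls and 3.47% and 2.58% under CUMS, from 0 to 5 reads a library. For miR-3078 the 3p arm had 0 and 0 reads in the controls and 3 and 2 under CUMS, none above the floor. The CUMS libraries were the higher ones for miR-3068, but the Wilson intervals of control library b (1.49 to 4.00) and CUMS library a (1.61 to 4.09) nearly coincided. The reads of the minor arms of miR-3082 and miR-3078 are too few to give a direction. In miR-3086 and miR-3057 the groups overlapped, with minor arms of 0 to 7 and 1 to 3 reads.

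Among the 11 member hairpins with at least 100 reads over both arms, the minor arm share of both CUMS libraries was above both control libraries for 5 and below both for 0. Over all 234 hairpins of the table with as many reads, 17.9% were above and 14.1% below. With the hairpins of fewer reads added, 5 of 19 member hairpins were above and 2 below, against 49 and 44 of 294 in the table. Of the 5, miR-3061 and miR-3068 had more than 10 reads of the minor arm in each library, while miR-3066, miR-3078 and miR-3082 had 0 to 5, so the count of 5 rests largely on values near the floor. Over the 6 hairpins with the most reads the minor arms summed to 34 of 2633 reads and 46 of 2510 reads in control and to 70 of 2635 and 59 of 2271 under CUMS. This is 1.29% and 1.83% in the controls and 2.66% and 2.60% under CUMS, with the CUMS libraries higher. These counts were made after the shares had been seen, and no test was run on them.

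**Figure D5:**
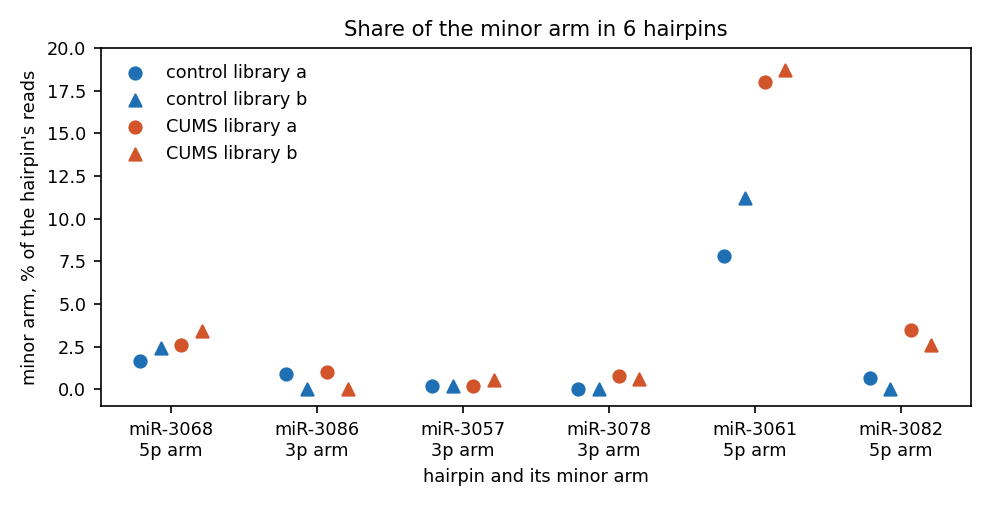
Minor arm of 6 hairpins as a share (%) of the reads of both arms, in each of the 4 libraries, control in blue and CUMS in orange, circles for library a and triangles for library b. The miR-3061 points lie at 7.81 and 11.2 in the controls and 18.0 and 18.7 under CUMS, and the highest point of another hairpin is at 3.47.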

How the data were processed

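Small RNA of 2 control and 2 CUMS libraries was analysed from a table of group means. As signal, the authors deposited a mean normalized count per group, in which DESeq had scaled each library's reads by its size factor. According to the study's methods, clean reads were matched without mismatch to mouse precursors of miRBase after reads of other noncoding RNAs had been removed. Bowtie, DESeq and mm10 are named in the submitters' processing notes, without versions. The other columns of the authors hold the mean over both groups, the fold, its log2 value and p-values of their own comparison, and were not used. The group columns are unnamed and were assigned by the headings under which the study prints their values. For miR-3083-3p the study prints higher means in both groups than the authors deposited, with nearly the same ratio, and the deposited means were used.

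Each mean is a sum of whole reads times a step per library. Solving for them gave whole reads for 100% of the 1038 values in both groups, within a relative residual of 1e-09, and for 2 control values another pair came close. Size factors recomputed from these reads equalled those in the steps, 1.02, 1.00, 1.06 and 0.944. Ratios of the deposited means were taken after adding 1, and they understate the change of low members.

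Members and lists were chosen with earlier results of these data known. Members named are the 10 with the highest mean, the 6 with the largest ratio whose CUMS libraries lay on the same side of the control libraries and the 2 with the largest differences within a group, all with a mean of at least 10. The 6 hairpins with the most reads on both arms, miR-3103-5p and miR-3083-3p, up to 6 members with a shared seed and the 8 with the most reads in protein-coding hosts were added, 28 in all. Other names were chosen after their values were seen.

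The test was limma 3.58.1 with a mean-variance trend on log2(normalized count + 1), group as the factor and Benjamini-Hochberg adjustment over 719 miRNAs, those that reached 5 reads somewhere. edgeR 4.0.16 (quasi-likelihood, TMM) and DESeq2 1.42.0 (Wald) on the recovered reads were alternatives, in R 4.3.3, as were other pseudocounts, filters and scalings and leaving out each library. Other steps used Python 3.11.15, numpy 2.4.6, pandas 2.3.3, scipy 1.17.1 and matplotlib 3.10.9. Hosts came from GENCODE M21 on GRCm38, the assembly of mm10, and sequences from RefSeq on GRCm38.p6. Marker lists covered neurons, oligodendrocytes, choroid plexus, red cells, liver, muscle, epithelium and immune cells.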

Additional observations from a re-analysis of the deposited data

How the results depend on the processing

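Members called were 0 under every test, pseudocount and filter tried. They were also 0 with a library left out, where 1 library faced 2 and a single group gave the spread, which shows little about stability. The number of members past a fold of 1.5, 14 of 45, was 38 of 77 with no filter, against 36.9% of all 1038 miRNAs. With at least 50 reads summed over the libraries it was 5 of 26, against 13.4% of 492. With each library left out it was 13 to 25, against 30.7% to 35.0% of the 719. With the other pseudocounts and scalings it was 12 to 18, against 20.7% to 31.0% of the 719. The median log2 ratio of 0.13 was 0.06 to 0.51 with each library left out, highest without control library b, and 0.02 to 0.20 under the other settings. Members detected in every library fell from 44 to 28 at 5 reads and 25 at 10 reads. The summed log2 ratio of -0.15 was -0.30 to -0.01 with each library left out and -0.07 with library totals in place of size factors. It turned to 0.00, just above equality, without the most abundant member. Members with both CUMS libraries outside the control range were 18 with library totals and 14 with TMM. This count and both of its alternatives were chosen after seeing the data, as was leaving out libraries for the minor arm shares. The difference of the minor arm share of miR-3061, 8.88 percentage points, was then 7.21 to 10.5. That of miR-3068, 0.957, was 0.527 to 1.39, that of miR-3086, 0.0674, was -0.446 to 0.581, and that of the sum over 6 hairpins, 1.07, was 0.795 to 1.34. Of the 28 named members, 17 kept the sign of their ratio with each library left out and 23 under the other settings. No paired analysis was possible because the recovered libraries carry no replicate numbers. Members with few reads are limited by depth, and groups of 2 are too small for a search for outlying libraries.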
